A study of Mus musculus with 14 samples.

Results

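The 10 genes described here are core parts of the Notch pathway: the receptors Notch1, Notch2 and Notch3, the ligands Dll1, Jag1 and Jag2, the glycosyltransferase Lfng and the transcriptional targets Hes1, Hey1 and Heyl. They were picked by name as pathway members, at a time when earlier results of these data were known, and make up 10 of the 23284 gene symbols counted. All 10 passed the filter on low counts and were tested together with 12393 genes in all.

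RNA-seq was done on forelimb buds of single mouse embryos, with wild-type controls (n = 3) and Smad4Δ/Δc embryos (n = 4) at E10.0 (30 somites) and again at E10.5 (35 somites). Each replicate was the pair of buds of a separate embryo, and the labels give the strain as NMRI. Every embryo carried the PrxCre transgene (PrxCreT/+), so the wild type here is Smad4+/+ PrxCreT/+. The labels name Smad4flox/flox mothers, whose offspring cannot be Smad4+/+, whereas the study's methods name Smad4flox/+ mothers, wild-type littermates and Swiss Albino mice. Litters are not given per embryo, so that genotype cannot be told apart here from a difference in litter or line. The Smad4Δ/Δc PrxCreT/+ embryos carried 1 constitutive null allele of Smad4 in all cells and 1 floxed allele that the CRE recombinase inactivated. PrxCre is active in the limb bud mesenchyme, so that ectoderm, endothelium and blood kept the floxed allele. SMAD4 is the shared partner of the SMAD proteins that carry BMP and TGFβ signals to the nucleus, and the comparison asks how transcript levels differ when the mesenchyme loses it.

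Notch receptors are membrane proteins that are cut when a Delta or Jagged ligand on a neighbouring cell binds them, and the released intracellular domain joins the DNA-binding protein RBPJ to switch on targets such as the Hes and Hey repressors. Fringe enzymes such as LFNG add sugars to the receptor and thereby change which ligands activate it. In limb buds, Jag2 is best known from the apical ectodermal ridge, the epithelial rim that sustains outgrowth, while Notch3 in many organs is a receptor of vessel-associated mesenchymal cells.

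The start-proximal sequences of the members that differed between genotypes and had an entry among the RefSeq promoters are shown first, because RBPJ and SMAD proteins act through short DNA motifs. These are the 250 bases before the annotated start of Jag2 (chr12:112929496-112929745, minus strand) and of Lfng (chr5:140607091-140607340, plus strand) in build GRCm38.p6, whereas the reads were counted on mm9. Capitals mark the motif matches found.
Jag2: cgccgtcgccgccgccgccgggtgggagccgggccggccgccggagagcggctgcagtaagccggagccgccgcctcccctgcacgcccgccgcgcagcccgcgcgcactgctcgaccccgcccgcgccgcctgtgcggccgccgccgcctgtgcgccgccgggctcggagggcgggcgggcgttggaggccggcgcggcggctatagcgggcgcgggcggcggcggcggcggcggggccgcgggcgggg
Lfng: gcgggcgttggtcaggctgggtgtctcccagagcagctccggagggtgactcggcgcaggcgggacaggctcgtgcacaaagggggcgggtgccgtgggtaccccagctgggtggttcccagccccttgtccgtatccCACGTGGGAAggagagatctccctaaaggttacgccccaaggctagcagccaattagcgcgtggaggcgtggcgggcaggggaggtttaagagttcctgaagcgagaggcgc
Both strands of the full windows, 250 bases before to 50 after the start, were searched for the RBPJ core GTGGGAA, the E-box CACGTG bound by HES and HEY factors, and the GC-rich SMAD element GGCGCC. Of 32851 promoter windows, 6.38% held the RBPJ core, 7.15% the E-box and 11.9% the SMAD element. The Lfng window held an RBPJ core that starts 109 bases before the start site and an E-box that starts 112 bases before it, and the matches share their bases in part. Jag2 had no match to these letters, and neither had Jag1, Notch1, Notch2 or Notch3. Of the 2 Dll1 windows, 1 held the SMAD element, 169 bases before the start. In all, 7 of the 10 genes had a window, and Hes1, Hey1 and Heyl were not analysed for motifs. A match shows letters in a window, not that a protein binds there.

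Between 34066930 and 61691258 reads per embryo were counted on genes, and values are CPM (counts scaled to library size) after TMM normalization, unless RPKM is named. Smad4 itself fell from 161 ± 8.43 CPM (SD, n = 3) to 39.8 ± 4.19 CPM (SD, n = 4) at E10.0, and from 166 ± 2.27 to 37.0 ± 3.43 CPM at E10.5. The limb mesenchyme markers Prrx1 and Prrx2 were detected in every group, at group means of 601 to 866 CPM and 39.4 to 88.3 CPM. The mutant embryos numbered 4 and 5, 4 libraries over both stages, stood apart with 1.72% to 8.05% of reads on the ribosomal RNA precursor, against 0.151% to 0.478% in the other 10. No wild-type library carries these numbers, so that in those libraries this difference cannot be told apart from genotype. The fits were therefore repeated with the embryos numbered 1 to 3 only, and every call among the genes named that this changed is given.

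A gene counted as a DEG where edgeR's exact test gave an adjusted p (FDR) no higher than 0.1 together with a change of 1.2-fold or more, the thresholds of the study's methods. Between genotypes at E10.0, 1 of the 10 genes was a DEG, Jag2, which was lower in mutants, against 6.61% of all genes tested. At E10.5, 2 of the 10 were DEGs, Lfng higher and Hey1 lower, against 3.73% of all genes. The median log2 fold change of the 10 was -0.08 at E10.0 and -0.05 at E10.5, beside -0.02 and -0.01 over all genes. From E10.0 to E10.5 in wild type, 3 of the 10 changed (Jag2 down, Hey1 and Heyl up; background 10.1%), and in mutants 4 of the 10 (Jag2 down, Jag1, Hes1 and Heyl up; background 19.2%). The corresponding medians were 0.02 and 0.15 on the log2 scale, beside -0.01 and -0.01 over all genes. The 3 genes called between genotypes were a ligand, a glycosyltransferase and a target.

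**Figure D1:**
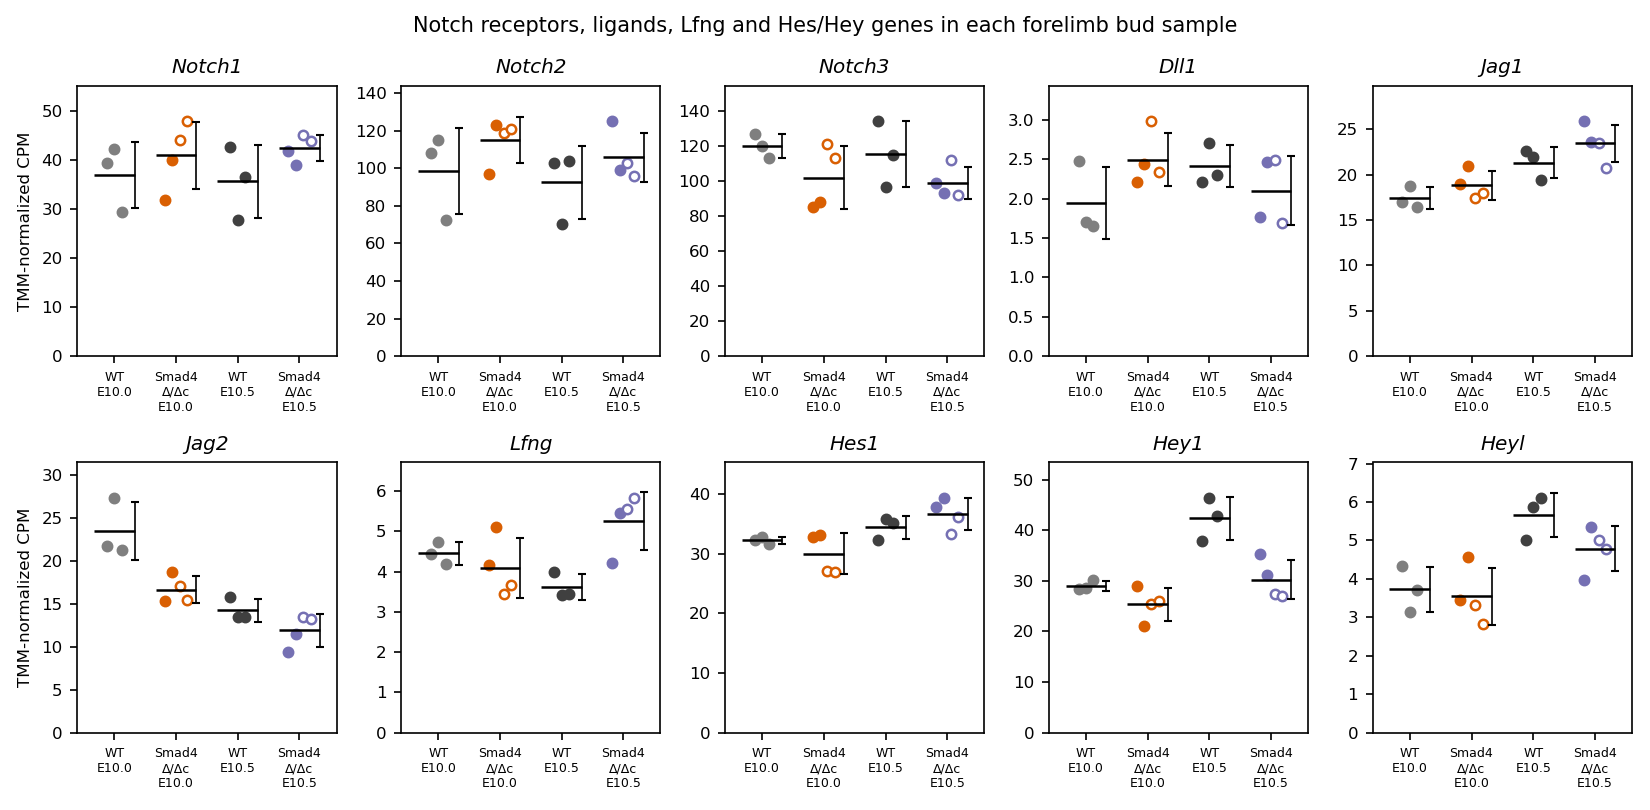
Level of each of the 10 genes in every embryo, as TMM-normalized CPM on linear axes that start at 0. Points are embryos, open points the mutant embryos numbered 4 and 5, bars the group means and whiskers the SD (n = 3 wild type, n = 4 Smad4Δ/Δc per stage). Jag2 lies lower in all 4 mutants than in all 3 wild types at E10.0, and Hey1 lies lower in all 4 mutants at E10.5.

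Per length, in RPKM (CPM per kilobase of annotated exons), the highest levels belonged to targets and receptors. In wild type at E10.0 the order was Hes1 (15.9 RPKM), Notch3 (14.9), Hey1 (13.2), Notch2 (9.34), Jag2 (5.77), Jag1 (2.99), Notch1 (2.61), Lfng (1.95), Heyl (0.729) and Dll1 (0.459). The embryos' ranges overlapped between the neighbours Hes1 and Notch3, Jag1 and Notch1, and Notch1 and Lfng, and stood apart between the other neighbours. At E10.5 in wild type, Hey1 moved to the top (19.2 RPKM, range overlapping Hes1 at 16.9) and Jag1 (3.66) came level with Jag2 (3.51), with overlapping ranges. In the E10.5 mutants, Hes1 led at 18 RPKM and its range stood apart from that of Hey1 at 13.7. Dll1 was the lowest member in all 4 groups, at 0.459 to 0.590 RPKM and 52 to 141 reads per embryo, so that its values carry the largest counting error of the 10.

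None of the 3 receptors was a DEG in any of the 4 comparisons. Notch3 read 127, 120 and 113 CPM in the E10.0 wild types and 85.3, 87.8, 121 and 113 CPM in the mutants numbered 1, 3, 4 and 5. The mutants fall into a lower and a higher pair here, and the higher pair, numbers 4 and 5, overlaps the wild types. The log2 fold change was -0.24 (SE 0.135, Benjamini-Hochberg adjusted p = 0.293 by edgeR's exact test). With the embryos numbered 1 to 3 only, Notch3 was a DEG at E10.0 (log2 fold change -0.45, adjusted p = 0.0025, edgeR's exact test), and leaving out mutant 4 alone also made it one (-0.33, adjusted p = 0.0879). At E10.5 the wild types read 134, 96.4 and 115 CPM and the mutants 98.7, 93.3, 112 and 91.7 CPM. These groups overlap, with a log2 fold change of -0.22 (SE 0.151, adjusted p = 0.575, edgeR's exact test).

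Notch2 and Notch1 had differences of the opposite sign, within the spread between embryos. Notch2, a receptor with roles in skeleton and vessels, read 108, 115 and 72.2 CPM in wild type and 96.7, 123, 119 and 121 CPM in mutants at E10.0, so that 1 wild type was low and the groups overlap. Its log2 fold changes were 0.23 (SE 0.223) at E10.0 and 0.20 (SE 0.204) at E10.5. Notch1, the receptor best known from blood and endothelium, had group means of 37.1 and 41.1 CPM at E10.0 and 35.8 and 42.6 CPM at E10.5, with log2 fold changes of 0.14 (SE 0.201) and 0.25 (SE 0.182). The smallest adjusted p of Notch1 and Notch2 in these 2 genotype comparisons was 0.456 by edgeR's exact test. Their levels also moved little with stage, by -0.12 to 0.05 on the log2 scale, and Notch3 by -0.06 and -0.04. In mutants 4 and 5, Notch1 was higher than in the other mutants at both stages (44.2 to 48.0 against 31.9 to 40.0 CPM at E10.0, and 44.0 to 45.1 against 39.1 to 42.0 CPM at E10.5).

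The make-up of the receptor transcripts was compared as well. Among the summed RPKM of Notch1 to Notch4, Notch3 took 49.1% to 57.1% in the E10.0 wild types (mean 52.7%) and 41.1% to 48.0% in the mutants (mean 45.2%). At E10.5 it took 51.1% to 54.9% in wild type (mean 53.2%) and 43.0% to 49.2% in mutants (mean 45.8%). The genotypes did not overlap at either stage, with embryos 4 and 5 included. Notch2 took 28.0% to 36.0% in wild type and 36.3% to 44.0% in mutants at E10.0, without overlap, and 30.7% to 35.3% and 34.7% to 41.7% at E10.5, with overlap. Notch1 took 8.44% to 9.81% and 9.68% to 11.1% at E10.0, with overlap, and 9% to 9.68% and 10.3% to 12.3% at E10.5, without overlap. The mean shares of both were higher in mutants at both stages. The share was examined after its values were seen and was not tested, and a share shows unequal change among receptors, not which of them changed. The 4 receptors summed to 28.5 RPKM in the E10.0 wild types, 27.9 in the E10.0 mutants, 27.0 in the E10.5 wild types and 26.8 in the E10.5 mutants.

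**Figure D2:**
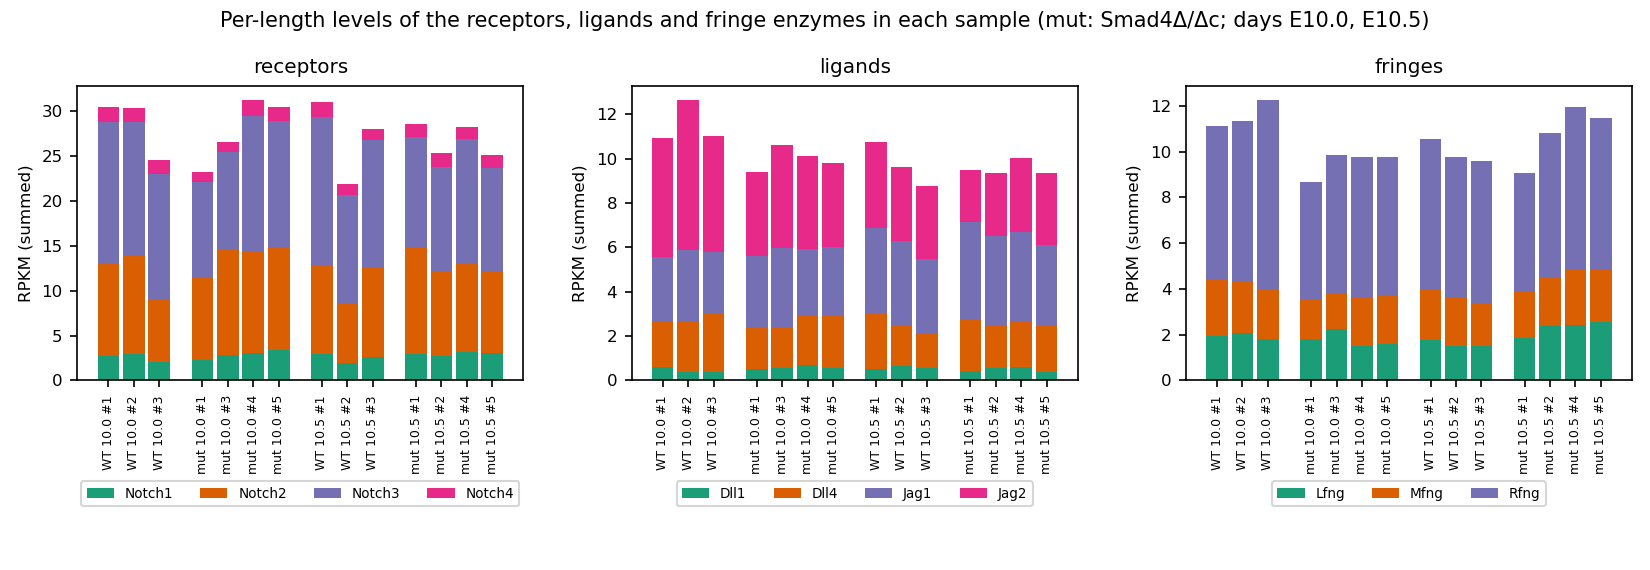
Stacked RPKM of the receptors, ligands and fringe enzymes in each embryo, numbered as in the labels, with 1 bar per embryo and mut standing for Smad4Δ/Δc. The Notch3 segment is 49.1% to 57.1% of the receptor bar in wild type and 41.1% to 49.2% in mutants, and the Jag2 segment shortens from E10.0 to E10.5.

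Of the ligands, Jag2 was the one that differed between genotypes. The gene lies at chr12:114146801-114167706 on the minus strand (mm9) and encodes a Jagged ligand that Notch receptors on adjacent cells recognize. In the E10.0 wild types it read 21.7, 27.3 and 21.2 CPM, and in the mutants 15.3, 18.7, 17.1 and 15.4 CPM. All 4 mutants were lower than all 3 wild types, and wild type 2 was the highest sample. The means were 23.4 ± 3.42 CPM (SD, n = 3) and 16.6 ± 1.61 CPM (SD, n = 4), a log2 fold change of -0.49 (SE 0.133, adjusted p = 0.0131, edgeR's exact test). Without wild type 2 the call was lost (log2 fold change -0.37, adjusted p = 0.171), and it was kept in the other 6 fits that left out 1 of these embryos. With the embryos numbered 1 to 3 only, Jag2 kept its call (-0.45, adjusted p = 0.0322, edgeR's exact test).

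At E10.5, Jag2 read 15.8, 13.5 and 13.4 CPM in wild type and 9.37, 11.5, 13.5 and 13.2 CPM in mutants. The mutants numbered 1 and 2 were lowest, and those numbered 4 and 5 overlapped the wild types. The log2 fold change was -0.26 (SE 0.137, adjusted p = 0.532, edgeR's exact test). The genotype difference at E10.5 minus that at E10.0 was 0.23 on the log2 scale (adjusted p = 0.95, edgeR's quasi-likelihood test of the interaction), so that the genotype effect was not shown to differ between the stages. With the embryos numbered 1 to 3 only, the E10.5 difference was -0.44 (adjusted p = 0.106, edgeR's exact test), again no DEG, and the interaction was 0.01 (adjusted p = 0.994, edgeR's quasi-likelihood test). Jag2 fell with stage in both genotypes, from 23.4 to 14.2 CPM in wild type (log2 fold change -0.72, SE 0.137, adjusted p = 8.24e-05, edgeR's exact test) and from 16.6 to 11.9 CPM in mutants (-0.49, SE 0.133, adjusted p = 0.00222). The stages did not overlap in either genotype, and every fit that left out 1 embryo kept both calls. The E10.0 mutants lay between the wild types of both stages in their mean, and the highest E10.5 wild type (15.8 CPM) fell inside their range of 15.3 to 18.7 CPM.

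Transcripts of several cell types can move the level of a ligand in whole buds, and fewer cells of a type and less RNA per cell cannot be told apart in such samples. The summed level of 8 ectoderm and ridge markers (Epcam, Cdh1, Krt8, Krt18, Krt14, Cldn6, Fgf8 and Sp8) was 205 to 255 CPM in the E10.0 wild types and 161 to 243 CPM in the mutants. None of the 8 was a DEG between genotypes at E10.0 by edgeR's exact test, and none had an unadjusted p under 0.05, beside 17.7% of all genes. Jag2 was paired with this list after the values were seen, because the sum moved in the same direction. Jag2 as a share of this sum was 9.13% to 10.7% in the E10.0 wild types and 6.73% to 9.57% in the mutants, so that the groups overlapped by this measure in 1 mutant, number 5. From E10.0 to E10.5 the sum fell from a mean of 232 to 197 CPM in wild type without overlap. In mutants it went from 207 to 179 CPM with overlap, and there Cldn6 and Sp8 were DEGs downwards and Krt14 upwards. The correlation of Jag2 with this sum was 0.78 over the 14 embryos (Pearson's r on log2 values), which share stage and genotype. Macrophage markers moved the other way, with sums of 2.47 to 5.37 CPM in the E10.0 wild types, 6.45 to 7.62 in the E10.0 mutants, 11.3 to 12.9 in the E10.5 wild types and 11.4 to 20 in the E10.5 mutants. Of the 4 tested macrophage markers, 2 (Cx3cr1 and Ptprc) were DEGs upwards in the E10.0 mutants and all 4 rose with stage in both genotypes, and the correlation with Jag2 was -0.96. The part of ectoderm or macrophage content in the Jag2 values was not tested.

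**Figure D3:**
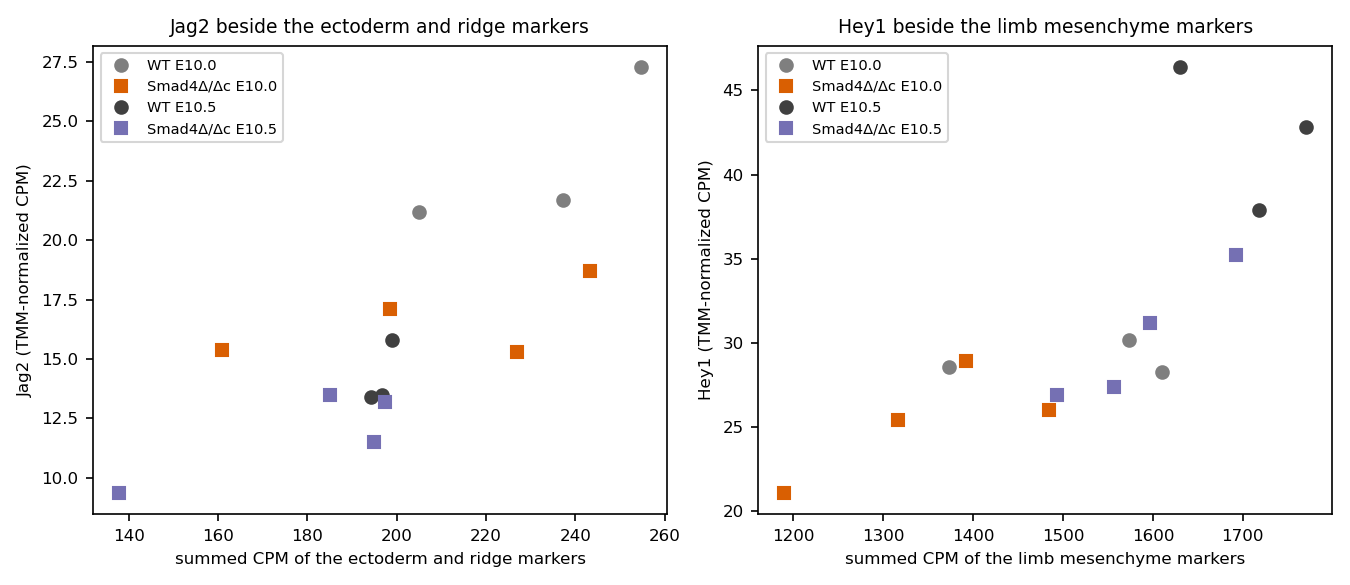
Jag2 beside the summed ectoderm and ridge markers (left) and Hey1 beside the summed limb mesenchyme markers (right), in CPM, with 1 point per embryo, circles for wild type and squares for Smad4Δ/Δc. Both pairs were chosen after the values were seen, because gene and sum moved in the same direction. The axes do not start at 0. Jag2 of the E10.0 mutants lies at 15.3 to 18.7 CPM across marker sums of 161 to 243 CPM.

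Jag1, the other Jagged ligand and one expressed in limb mesenchyme among other tissues, was not a DEG between genotypes. Wild types read 17.0, 18.8 and 16.5 CPM and mutants 19.0, 21.0, 17.4 and 18 CPM at E10.0, and 22.6, 22.0 and 19.4 CPM beside 25.9, 23.6, 23.5 and 20.8 CPM at E10.5. The groups overlap at both stages, with log2 fold changes of 0.12 (SE 0.0811) and 0.14 (SE 0.0920). Jag1 rose with stage in mutants (log2 fold change 0.32, SE 0.0858, adjusted p = 0.0157, edgeR's exact test), and every fit without 1 embryo kept this call. In wild type it changed by 0.29 (SE 0.0877, adjusted p = 0.115, edgeR's exact test) with no overlap between stages, and it was a DEG by DESeq2 (adjusted p = 0.0404), by edgeR's quasi-likelihood test (adjusted p = 0.0994) and with the embryos numbered 1 to 3 only (adjusted p = 0.0366). The interaction between stage and genotype for Jag1 was 0.02 (adjusted p = 0.986, edgeR's quasi-likelihood test). The correlation of Jag1 with the macrophage markers was 0.80 over the 14 embryos, and its part in the Jag1 values was not tested.

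Dll1, a Delta ligand known from somites and muscle progenitors, lay close to the 1 CPM filter. Its E10.0 values were 2.47, 1.70 and 1.65 CPM in wild type and 2.21, 2.44, 2.98 and 2.34 CPM in mutants, and at E10.5 they were 2.21, 2.71 and 2.30 CPM and 1.76, 2.46, 2.49 and 1.69 CPM. The genotypes overlap at both stages. The log2 fold changes between genotypes, 0.35 (SE 0.169, adjusted p = 0.384) and -0.20 (SE 0.142, adjusted p = 0.895, edgeR's exact test), had opposite signs, and their difference of -0.55 did not pass the test (adjusted p = 0.91, edgeR's quasi-likelihood test). The somite markers Meox1 and Tcf15 were DEGs upwards in the E10.0 mutants, while Uncx, Mesp2, Tbx6 and Ripply2 were under 1 CPM in every sample. The somite sum was 23.3 to 25.9 CPM in wild type and 26.6 to 36.5 CPM in mutants at E10.0, without overlap, and overlapped at E10.5. Tcf15 was a DEG upwards in the E10.5 mutants as well (log2 fold change 0.54, adjusted p = 0.0843, edgeR's exact test), where Dll1 had a negative sign. The summed markers of the mesothelium, the lining of the body cavity, differed with the same signs as Dll1. So did the mean sums of somite, muscle precursor, pericyte and smooth muscle, and erythroid (red blood cell) markers. No list was paired with Dll1 beforehand. The mesothelium sum was 6.96 to 10.2 CPM in wild type and 13.4 to 24.8 CPM in mutants at E10.0, and 10 to 12.9 CPM and 5.76 to 9.41 CPM at E10.5, without overlap at either stage. Of the 4 mesothelium markers tested, Upk3b and Wt1 were DEGs upwards at E10.0 (log2 fold change 3.35 and 2.38) and downwards at E10.5 (-1.76 and -1.42), and both passed the interaction test, while Krt19 and Upk1b were no DEGs between genotypes and Msln was under 1 CPM in every sample. Over the 14 embryos Dll1 correlated with the mesothelium sum at 0.61, the pericyte and smooth muscle sum at 0.55 and the somite sum at 0.38 (Pearson's r on log2 values, as a description). Its correlation was 0.31 with the erythroid sum and 0.26 with the muscle precursor sum. The part of these tissues in the Dll1 values was not tested.

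Within the ligands, the mean share of Jag2 was smaller and that of Jag1 larger at E10.5 than at E10.0. The same held in mutants beside wild type. Jag2 made up 49.9% of the summed RPKM of Dll1, Dll4, Jag1 and Jag2 in the E10.0 wild types (range 47.3% to 53.3%) and 41.0% in the E10.0 mutants (38.7% to 43.5%). It made up 36.2% in the E10.5 wild types (34.5% to 37.7%) and 30.7% in the E10.5 mutants (24.4% to 34.8%). Jag1 took 25.9%, 32.4%, 37.8% and 42.2% in the same order of groups. For Jag2, the stages were apart in both genotypes, and the genotypes were apart at E10.0 and overlapped at E10.5. For Jag1, the genotypes were apart at E10.0 (25.6% to 26.7% and 29.4% to 34.8%) and overlapped at E10.5 (36.1% to 39.4% and 38.3% to 47.0%). The summed ligands came to 11.5, 9.99, 9.72 and 9.55 RPKM in the same order. These shares were not tested, and a share does not show which ligand changed. Dll4, an endothelial ligand outside the 10, stayed at 20.2% to 22.0% in the group means.

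Lfng was higher in the E10.5 mutants. The gene lies at chr5:141083295-141091497 on the plus strand (mm9) and encodes the fringe enzyme whose start-proximal window carried the RBPJ core shown above. At E10.5 it read 3.99, 3.42 and 3.44 CPM in wild type and 4.20, 5.44, 5.55 and 5.83 CPM in mutants, from 157 to 279 reads per embryo. All 4 mutants were higher than all 3 wild types, mutant 1 by the least. The means were 3.61 ± 0.325 CPM (SD, n = 3) and 5.25 ± 0.724 CPM (SD, n = 4), a log2 fold change of 0.53 (SE 0.116, adjusted p = 0.0662, edgeR's exact test). The call was lost when mutant 2, 4 or 5 or wild type 2 or 3 was left out (adjusted p = 0.14, 0.192, 0.243, 0.356 and 0.272 by edgeR's exact test), with log2 fold changes of 0.48 to 0.52 in those fits. With the embryos numbered 1 to 3 only, the change was 0.43 (adjusted p = 0.277), and edgeR's quasi-likelihood test gave an adjusted p of 0.108.

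At E10.0, Lfng read 4.44, 4.74 and 4.18 CPM in wild type and 4.16, 5.11, 3.44 and 3.66 CPM in mutants. Mutants 4 and 5 were lowest, and the groups overlap (log2 fold change -0.11, SE 0.122). The genotype difference at E10.5 was larger than the E10.0 one by 0.65 (log2), which did not pass edgeR's quasi-likelihood test (adjusted p = 0.593), and with the embryos numbered 1 to 3 only by 0.35 (adjusted p = 0.731). Lfng changed by -0.30 with stage in wild type (SE 0.0798, adjusted p = 0.347, edgeR's exact test) and by 0.35 in mutants (SE 0.148, adjusted p = 0.107), or by 0.06 with the embryos numbered 1 to 3 only. The mutant change was a DEG without the E10.0 mutant 3 (adjusted p = 0.0298) or without the E10.5 mutant 1 (adjusted p = 0.0325, edgeR's exact test). Among the fringe transcripts per length, Lfng took 15.3% to 16.6% in the E10.5 wild types and 20.3% to 22.3% in the E10.5 mutants, and 15.0% to 18.3% beside 15.5% to 22.8% at E10.0. The larger share, 57.2% to 67.4% over all embryos, was that of Rfng.

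**Figure D4:**
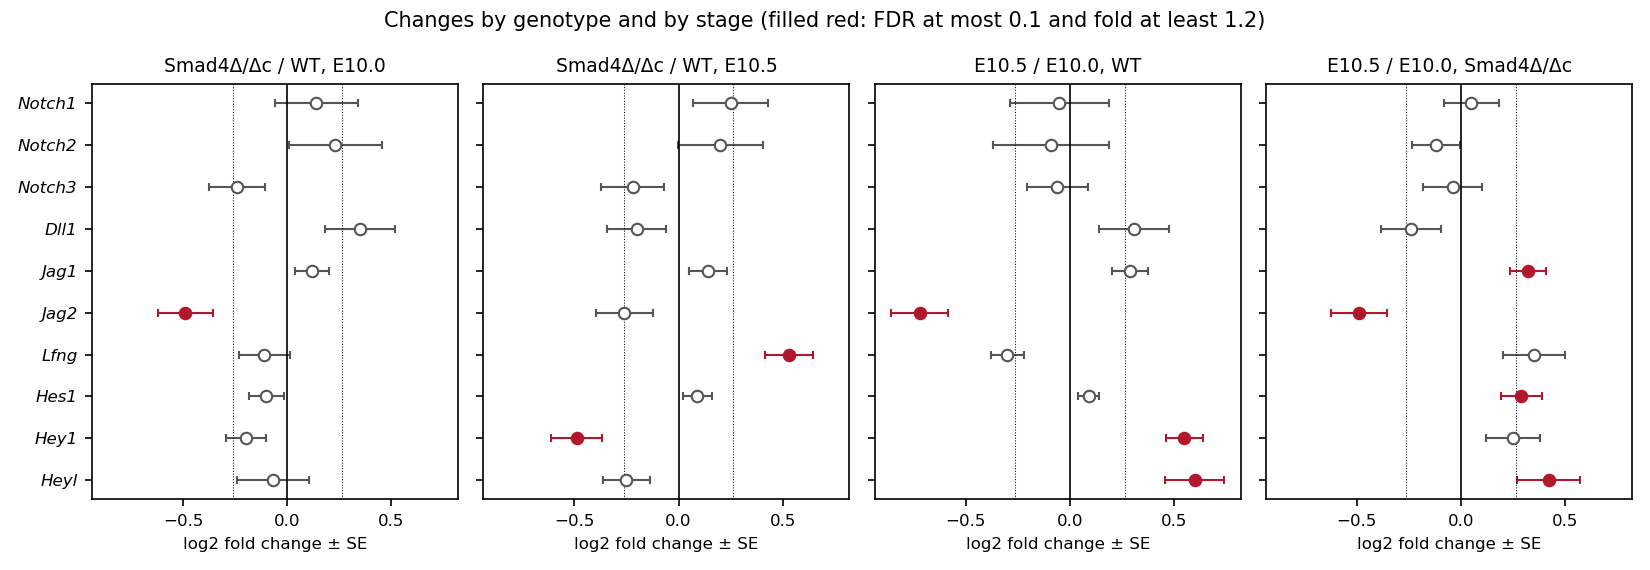
Log2 fold changes of the 10 genes in the comparisons of genotype at each stage and of stage in each genotype, with SE from the spread between embryos. Filled red points are DEGs (FDR no higher than 0.1, change of 1.2-fold or more), and dotted lines mark the 1.2-fold change. Jag2 lies left of 0 in all 4 panels, and Hey1 lies right of 0 with stage and left of 0 with genotype.

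Hey1 was the target that differed between genotypes, at E10.5. The gene lies at chr3:8663362-8667039 on the minus strand (mm9) and encodes a basic helix-loop-helix repressor that Notch and, in some cells, BMP signals induce. At E10.5 it read 37.9, 46.4 and 42.8 CPM in wild type and 35.2, 31.2, 27.4 and 26.9 CPM in mutants. All 4 mutants were lower than all 3 wild types, and mutants 4 and 5 were the lowest. The means were 42.4 ± 4.27 CPM (SD, n = 3) and 30.2 ± 3.83 CPM (SD, n = 4), a log2 fold change of -0.49 (SE 0.122, adjusted p = 0.00256, edgeR's exact test). The call held in all 7 fits that left out 1 of these embryos (log2 fold change -0.56 to -0.41, adjusted p of at most 0.0954). It was lost with the embryos numbered 1 to 3 only (-0.34, adjusted p = 0.155, edgeR's exact test).

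The E10.0 values of Hey1 were 28.3, 28.6 and 30.2 CPM in wild type and 28.9, 21.1, 25.4 and 26.0 CPM in mutants. Mutant 1 lay among the wild types and the other mutants below them, with a log2 fold change of -0.20 (SE 0.0960, adjusted p = 0.391, edgeR's exact test). In wild type, Hey1 rose with stage from 29.0 to 42.4 CPM without overlap (log2 fold change 0.55, SE 0.0883, adjusted p = 0.00091, edgeR's exact test), and all 6 fits without 1 embryo kept the call. In mutants the change was 0.25 (SE 0.128, adjusted p = 0.0986), a fold of 1.19 that misses the 1.2 threshold, and the stages overlapped. It became a DEG without the E10.0 mutant 1 (0.33) or the E10.5 mutant 4 (0.30) or 5 (0.30), and with the embryos numbered 1 to 3 only (0.42, adjusted p = 0.03, edgeR's exact test). The interaction of -0.29 had an adjusted p of 0.94 by edgeR's quasi-likelihood test, so that a smaller stage change in mutants was not shown.

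Markers of limb mesenchyme and of other cell types were set beside Hey1. The mesenchyme list was paired with Hey1 after the values were seen, because its sum moved in the same direction. The summed mesenchyme level of Prrx1, Prrx2, Tbx5, Lhx9, Msx1 and Pdgfra was 1373 to 1610 CPM in the E10.0 wild types, 1190 to 1485 in the E10.0 mutants, 1630 to 1770 in the E10.5 wild types and 1493 to 1693 in the E10.5 mutants. At E10.5, Prrx1 and Prrx2 were DEGs downwards in mutants and Pdgfra upwards. Hey1 as a share of this sum was 2.21% to 2.85% in the E10.5 wild types and 1.76% to 2.08% in the E10.5 mutants, without overlap, and 1.76% to 2.09% beside 1.75% to 2.07% at E10.0. Across the 14 embryos, which differ in stage and genotype, Hey1 correlated with the mesenchyme sum at 0.81 and with the summed neuron markers at 0.73 (Pearson's r on log2 values of CPM + 0.5, given as a description). The neuron sum was 85.7 to 114 CPM in wild type and 74.7 to 91.4 CPM in mutants at E10.0, and 112 to 130 CPM and 103 to 119 CPM at E10.5, with overlap at both stages. Most of this sum came from 1 marker, Dcx, which was not tested. Tubb3 had group means of 8.31 to 11.5 CPM, and Elavl3, Elavl4, Stmn2 and Isl1 had at most 4 CPM. None of the 4 neuron markers tested was a DEG between genotypes at E10.5, and Isl1 was a DEG upwards at E10.0. Erbb3, a neuregulin receptor of neural crest derivatives, was a DEG downwards in the E10.5 mutants, from 9.76 to 7.28 CPM (log2 fold change -0.42, adjusted p = 0.0394, edgeR's exact test). It was the only marker of its list that passed the filter. Sox10, a defining neural crest factor, had group means of 0.138 to 1.07 CPM. At E10.5 its mean was the higher one in mutants, at 1.07 CPM beside 0.8 CPM in wild type. The part of neurons or neural crest derivatives in the Hey1 values was not tested.

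Hes1, a repressor that answers to Notch in many tissues, was not a DEG between genotypes. In the E10.0 samples it read 32.3, 32.9 and 31.7 CPM in wild type and 32.9, 33.2, 27.1 and 27.0 CPM in mutants, where numbers 4 and 5 were low. At E10.5 it read 32.3, 35.9 and 35.2 CPM in wild type and 37.9, 39.4, 33.3 and 36.1 CPM in mutants. The groups overlap at both stages, with log2 fold changes of -0.10 (SE 0.0838) and 0.09 (SE 0.0697). Hes1 rose with stage in mutants (log2 fold change 0.29, SE 0.0971, adjusted p = 0.0191, edgeR's exact test) without overlap. This call was lost without the E10.0 mutant 4 or 5 or the E10.5 mutant 2, where the log2 fold change of 0.24, 0.24 and 0.26 missed the 1.2-fold threshold, and with the embryos numbered 1 to 3 only (0.23, adjusted p = 0.113). In wild type the stage change was 0.09 (SE 0.0497, adjusted p = 0.68), and the interaction was 0.19 (adjusted p = 0.95, edgeR's quasi-likelihood test).

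Heyl, a member of the Hey family known from vascular smooth muscle and muscle progenitors, was expressed at a low level and rose with stage. It read 4.33, 3.15 and 3.70 CPM in the E10.0 wild types and 5.02, 5.87 and 6.11 CPM in the E10.5 wild types, with no overlap and a log2 fold change of 0.60 (SE 0.141, adjusted p = 0.0318, edgeR's exact test). In mutants it went from 3.44, 4.57, 3.33 and 2.83 CPM to 3.97, 5.35, 5.01 and 4.79 CPM, with an overlap through the E10.0 mutant 3 and a change of 0.42 (SE 0.151, adjusted p = 0.0636). Both calls rest on single embryos. The wild-type call was lost without E10.0 wild type 2 or 3 or E10.5 wild type 2 or 3 (adjusted p = 0.274, 0.114, 0.119 and 0.194 by edgeR's exact test). The mutant call was lost without any of the mutants numbered 1, 4 and 5 at E10.0 or 2, 4 and 5 at E10.5 (adjusted p = 0.106 to 0.202), and with the embryos numbered 1 to 3 only the change was 0.22 (adjusted p = 0.614). Between genotypes the log2 fold changes were -0.07 (SE 0.172) and -0.25 (SE 0.115, adjusted p = 0.761). The pericyte and smooth muscle markers, which were few reads in all, summed to 5.97 to 7.61 CPM in the E10.0 wild types and 8.42 to 11.7 in the E10.0 mutants. At E10.5 the sums were 11.6 to 15.4 CPM in wild type and 8.52 to 10.8 in mutants, with Myh11 and Kcnj8 under 1 CPM in every sample. Acta2 and Tagln were DEGs upwards in the E10.0 mutants. In the E10.5 mutants Acta2 and Rgs5 were DEGs downwards, while Tagln and Cspg4 were no DEGs. With stage, Acta2 and Tagln rose in wild type, and in mutants Rgs5 fell and Cspg4 rose. Heyl correlated with the neuron sum at 0.7, the erythroid sum at 0.67, and the macrophage and the pericyte and smooth muscle sums at 0.6. The part of these cell types in the Heyl values was not tested.

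Per length, the summed Hes and Hey transcripts (Hes1, Hes6, Hey1, Hey2 and Heyl) amounted to 42.2 RPKM in wild type and 39.5 in mutants at E10.0, and to 52.1 and 50.7 RPKM at E10.5. Hey1 took 36.9% of this sum in the E10.5 wild types (35.7% to 38.1%) and 27.0% in the E10.5 mutants (24.6% to 31.3%), and 31.3% and 29.0% at E10.0. Hes6 took 25.4% to 27.7% in the E10.5 wild types (mean 26.4%) and 29.2% to 39.7% in the E10.5 mutants (mean 34.2%), without overlap, and Hes1 took 32.5% and 35.5% in the mean, with overlap. The E10.5 totals ranged from 48.3 to 55.3 RPKM in wild type and from 49.8 to 51.7 RPKM in mutants, with overlap. The shares of Hey1 and Hes6 were apart in opposite directions. In mutants 4 and 5, Hes6 took 39.7% and 36.7%, beside 29.2% and 31.0% in mutants 1 and 2. Hey1 took 24.7% and 24.6% in mutants 4 and 5, beside 31.3% and 27.4% in mutants 1 and 2. Shares of a common sum are tied to each other, do not show which gene changed, and were not tested. Hes6 itself was higher in every E10.5 mutant than in every wild type, at 31.2 beside 24.8 CPM in the mean, and was no DEG (log2 fold change 0.33, SE 0.1, adjusted p = 0.108, edgeR's exact test).

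None of the 10 genes passed the test of an interaction between stage and genotype (edgeR's quasi-likelihood test), against 0.186% of all genes. Lfng was the only member with an unadjusted p under 0.05, compared with 5.76% of all genes, and DESeq2 also called none of the 10. Counted by separation alone, the genotypes did not overlap in 1 member at E10.0 (Jag2) and in 2 at E10.5 (Lfng and Hey1), beside 17.8% and 13% of all genes. The stages did not overlap in 5 members in wild type and in 2 in mutants, beside 37.0% and 20% of all genes.

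Of 50 other Notch pathway genes in the count table, 40 passed the filter. At E10.0, 3 of the 40 were DEGs between genotypes, beside 6.61% of all genes tested. Mib2, a ubiquitin ligase for Notch ligands, fell from 16.3 to 11.7 CPM (log2 fold change -0.48, SE 0.142, adjusted p = 0.0279, edgeR's exact test), and Dtx3, a Deltex-family gene, from 55.3 to 43.0 CPM (-0.36, SE 0.195, adjusted p = 0.0746). Ep300, a histone acetyltransferase that serves as a co-activator of the Notch complex and of many other factors, rose from 130 to 164 CPM (0.33, SE 0.121, adjusted p = 0.0688). All 3 calls depended on single libraries. Mib2 was lost without mutant 1 (adjusted p = 0.118) or wild type 3 (0.336). Dtx3 was lost without mutant 1 (adjusted p = 0.25), mutant 3 (0.145), wild type 3 (0.732, with a log2 fold change of -0.16) or the E10.5 wild type 1, which enters only the shared fit (0.102). Ep300 was lost without mutant 3 (adjusted p = 0.103), mutant 5 (0.24), wild type 1 (0.151) or wild type 3 (0.482, all by edgeR's exact test). With the embryos numbered 1 to 3 only, Mib2 (-0.67) and Dtx3 (-0.50) kept their calls and Ep300 lost its own (0.28, adjusted p = 0.104, edgeR's exact test). At E10.5, none of the 40 was a DEG by edgeR's exact test, beside 3.73% of all genes. Of the 40, 11 had an unadjusted p under 0.05 by edgeR's exact test at E10.0, beside 17.7% of all genes, and 4 at E10.5, beside 10.2%. For the interaction, 4 had an unadjusted p under 0.05 (edgeR's quasi-likelihood test), beside 5.76% of all genes, and none passed after adjustment. At E10.5, DESeq2 called 1 of the 40 between genotypes, a count that is not set against a background. The median log2 fold change of the 40 was 0.01 at both stages.

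By role, the 10 genes of the nuclear complex all had positive log2 fold changes at E10.0, with a median of 0.20 and 1 DEG (Ep300), and 8 of the 10 at E10.5, with a median of 0.10 and no DEG. The DNA-binding partner Rbpj was not a DEG in any comparison. The 4 glycosyltransferases other than Lfng had negative signs at E10.0, with a median of -0.22 and no DEG. The 9 tested proteases and gamma-secretase parts had medians of -0.10 and -0.07 and no DEG, and the 3 tested receptors and ligands outside the 10 (Notch4, Dll4 and Dlk1) had no DEG between genotypes. Notch4, an endothelial receptor, was a DEG downwards at E10.0 with the embryos numbered 1 to 3 only (log2 fold change -0.49, adjusted p = 0.0174, edgeR's exact test), beside -0.20 with all embryos. In the same embryos it was a DEG upwards with stage in mutants (0.39, adjusted p = 0.0858), beside 0.05 with all embryos.

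With stage, Nrarp, a direct Notch target that feeds back on the pathway, rose in both genotypes. It went from 12.6 ± 0.523 to 16.5 ± 0.986 CPM in wild type (SD, n = 3; log2 fold change 0.39, SE 0.0591, adjusted p = 0.0126, edgeR's exact test) and from 10.9 ± 0.685 to 18 ± 0.366 CPM in mutants (SD, n = 4; 0.72, SE 0.0460, adjusted p = 2.05e-11). Every mutant was below every wild type at E10.0 and above every wild type at E10.5, but the genotype difference passed edgeR's exact test at neither stage (adjusted p = 0.279 and 0.834), and the interaction did not pass either (adjusted p = 0.52) by edgeR's quasi-likelihood test. The rise in wild type was not called without the E10.0 wild type 2 (0.38, adjusted p = 0.105). Hes6, which encodes a HES relative that promotes differentiation, rose in mutants from 20.5 to 31.2 CPM (0.61, SE 0.116, adjusted p = 5.82e-07, edgeR's exact test). In wild type it went from 20.3 to 24.8 CPM, without overlap and short of the threshold (0.29, SE 0.0613, adjusted p = 0.143), and the interaction did not pass (0.32, adjusted p = 0.837, edgeR's quasi-likelihood test). In mutants Hey2 fell from 3.14 to 1.92 CPM (-0.69, SE 0.208, adjusted p = 0.0105, edgeR's exact test). The Hey2 call was lost with the embryos numbered 1 to 3 only (-0.51, adjusted p = 0.194). Dlk1, a non-canonical ligand, fell in both genotypes (-0.50, adjusted p = 0.0122 and -0.64, adjusted p = 7.42e-06), and in wild type the call was lost without the E10.0 wild type 2 (-0.40, adjusted p = 0.182). Hes2, Hes3, Hes5, Hes7, Helt, Dll3, Dlk2, Dner, Aph1c and Neurl1b did not pass the filter on low counts.

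**Figure D5:**
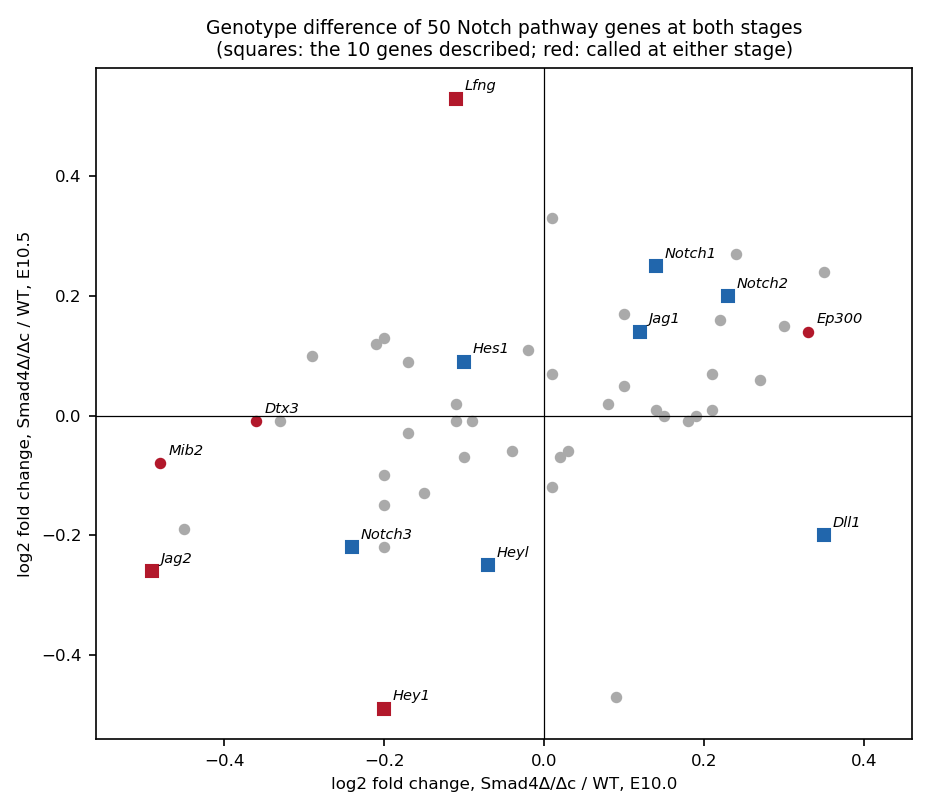
Log2 fold change of Smad4Δ/Δc over wild type at E10.0 (x axis) and at E10.5 (y axis) for 50 Notch pathway genes that passed the filter, the 10 genes described as squares and the other 40 as circles. Red marks genes called at either stage. Lfng stands alone at the top with 0.53 at E10.5 and -0.11 at E10.0, and Jag2 and Hey1 are negative at both stages.

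The genes whose levels followed each member most closely over the 14 embryos differed from member to member. By Pearson's r of log2 values, Jag2 was followed by Glrx5 (0.97) and Rpl10a (0.968), Hes1 by Lyrm2 (0.952) and Ggh (0.938), and Notch2 by Fbn2 (0.943) and Wdfy3 (0.94). Notch1 had Tns1 (0.928) and Itpr3 (0.925), and Notch3 had Scube1 (0.902) and Sufu (0.877). Hey1 had 1500009L16Rik (0.891) and Slc16a7 (0.888), Heyl had Entpd1 (0.907) and Krt9 (0.893), and Jag1 had Vav1 (0.887) and 3110057O12Rik (0.875). The weakest neighbours were those of Lfng, with Tdrkh (0.872) and Ebf4 (0.85), and of Dll1, with Spon2 (0.812) and Nlrc3 (0.789). Heyl, also a low-count member, had closer ones. These embryos share stages, genotypes and the ribosomal RNA difference of mutants 4 and 5, so that the values describe likeness in these samples alone.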

How the data were processed

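The authors deposited raw counts per gene symbol and embryo, made from single-end reads aligned to mm9 with TopHat (2.0.13 in the submitters' processing notes) and counted per gene without regard to strand by htseq-count. Reads outside genes (6.18% to 9.86%) and ambiguous reads (1.49% to 1.75%) were left out. Low-count genes such as Dll1 are the least precise. After dropping the sex chromosomes and the mitochondrial chromosome, 12393 genes that reached 1 CPM in 3 or more samples remained for testing.

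Counts of all 14 samples were normalized by TMM, with tag-wise dispersions (prior of 10 degrees of freedom), and pairs of groups went through the exact test of edgeR, adjusted over all genes by Benjamini-Hochberg (FDR up to 0.1 with a 1.2-fold change or more), as in the study's methods. The interaction used edgeR's quasi-likelihood test. Scripts were tested on simulated data. SEs came from replicate variances of log2(CPM + 0.5). RPKM used GENCODE M1 exon lengths (mm9). No other counted gene with a GENCODE M1 position overlapped a member, and genes outside the counts were not checked.

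Members and lists were chosen with earlier results of these data known. Genes named are the members, the other pathway genes that were DEGs or that the design names (Notch4, Dll4, Rbpj and Nrarp), and the 2 nearest genes by correlation. Replicates are separate embryos, and none agreed within sampling noise. Across stages in mutants, same-numbered embryos (1, 4 and 5) deviated together (r = 0.544, 0.584 and 0.249), but so did some with different numbers (4 with 5 at 0.349, 1 with 2 at 0.319), so that pairing cannot be told apart from the separation of embryos 4 and 5. Printed values are unpaired, and a replicate block is an alternative. The summed neural crest and Schwann cell precursor markers are not reported here. Alternatives were other size factors, tests, filters and thresholds, groups fitted apart, the block and embryos left out. The work used edgeR 4.0.16 and DESeq2 1.42.0 under R 4.3.3, with matplotlib 3.10.9 under Python 3.11.15.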

Additional observations from a re-analysis of the deposited data

Results flagged for a closer look

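Notch2 in the E10.0 Smad4Δ/Δc embryo numbered 1 (96.7 CPM) lay far from the other 3 mutants of that stage, which ranged from 119 to 123 CPM. It was the only such sample among 20 groups of 4 examined, and chance gives about 1 in 20. No mutant of the group was left out.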

How the results depend on the processing

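The 77 values of single genes had 1743 counterparts under alternative settings. Of these, 1672 kept their side of the threshold, 50 lost a call, 21 gained one and none of the called values changed sign. Among the 1285 in which neither the reported value nor the alternative was a call, 49 changed sign. At an FDR of at most 0.05, DEGs between genotypes at E10.0 numbered 506 instead of 819, members at E10.5 1 instead of 2, other pathway genes at E10.0 1 instead of 3, and interactions 9 instead of 23. edgeR's quasi-likelihood test called 1 member at E10.5 (Hey1) and 1 other pathway gene at E10.0. DESeq2 called 5 other pathway genes at E10.0, 1 at E10.5 and 87 interactions. RLE size factors, no filter on low counts, and groups fitted apart each gave 1 other pathway gene at E10.5. Without the filter there were 39 interactions, and with groups fitted apart 1932 DEGs with stage in wild type. With the embryos numbered 1 to 3 only, 2018 genes, 2 members and 11 other pathway genes were called at E10.0, 0 members and 1 other pathway gene at E10.5, and 6 interactions. Where a count of members or other pathway genes stands here without a count over all genes, it describes the setting alone. Such a count is not set against a background. The causes of these shifts were not tested.

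Across stages in mutants, where same-numbered embryos and some with different numbers deviated together, the replicate block changed no call among the genes named. Elsewhere the numbers were not shown to pair embryos (r from -0.261 to 0.161). There the replicate block, which between genotypes rests on the 2 same-numbered pairs of each stage, called 1990 genes and 11 other pathway genes at E10.0, 0 members at E10.5, 1899 genes with stage in wild type and 0 interactions. Jag2 at E10.0 was then -0.34 (adjusted p = 0.167), Lfng at E10.5 0.37 (adjusted p = 0.352) and Hey1 at E10.5 -0.34 (adjusted p = 0.257, edgeR's quasi-likelihood test). Calls gained with the block were Notch3 (-0.47, adjusted p = 0.0472) and Notch4 (-0.52, adjusted p = 0.074) at E10.0. Jag1 with stage in wild type was gained as well (0.29, adjusted p = 0.0475, all by edgeR's quasi-likelihood test).

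Leaving out 1 embryo at a time gave 254 to 1062 DEGs, 0 to 2 members and 0 to 4 other pathway genes at E10.0, and 286 to 516, 1 to 2 and 0 to 2 at E10.5. With stage in wild type it gave 484 to 1515, 2 to 4 and 0 to 3, and in mutants 1895 to 2732, 2 to 5 and 4 to 7. The interaction gave 7 to 34 genes, 0 members and 0 other pathway genes. Depth limits Dll1, Lfng and Heyl, at 52 to 299 reads per embryo.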
